A study of Mus musculus with 48 samples.

Results

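The 10 genes examined here are ligands, a co-receptor, inhibitors and transcriptional targets of the Nodal and BMP pathways (Bmp4, Nodal, Tdgf1, Gdf3, Lefty1, Lefty2, Id1, Id2, Id3 and Smad7), chosen by name from the 49671 genes counted in single inner cell mass (ICM) cells of the mouse blastocyst. All 10 were found in the count table. The 48 cells came from the ICMs of 3 blastocysts at E3.75, flushed after natural mating of PDGFRa::H2B-GFP/+ mice, whose Pdgfra locus carries a nuclear GFP reporter, with first generation hybrids of C57BL/6J and CBA/J. The trophectoderm was removed by immunosurgery, and the dissociated cells went into Smart-seq2 libraries, which sample whole transcripts without molecular identifiers. By the study's methods the embryos used were positive for the reporter and were picked for a mosaic of GFP-bearing cells in the ICM. The labels name the cells WT at a single stage and do not say which embryo a cell came from, so the cells count as 1 sample and no test between cells was made. The study's dendrogram divides them into 25 progenitors of the epiblast (pEPI) and 23 progenitors of the primitive endoderm (pPrE).

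Nodal and BMPs are secreted ligands of the TGF-beta superfamily. Nodal and its relative Gdf3 act through activin receptors together with the membrane-anchored co-receptor Tdgf1 (Cripto), and phosphorylated Smad2 and Smad3 then work with partners such as Foxh1 to switch on targets that include Nodal itself and the Lefty genes, whose proteins block the pathway from outside the cell. BMP ligands such as Bmp4 signal through Smad1 and Smad5, for which the Id genes are classical targets and Smad7 an intracellular brake shared by both pathways. In the blastocyst Nodal and Tdgf1 are known from the epiblast, and Id proteins from many early lineages, where they hold basic helix-loop-helix factors inactive.

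Positions are given on GRCm38. Bmp4 (ENSMUSG00000021835) lies at chr14:46383520-46390669, Nodal (ENSMUSG00000037171) at chr10:61417972-61425338, Tdgf1 (ENSMUSG00000032494) at chr9:110939603-110946158 and Gdf3 (ENSMUSG00000030117) at chr6:122605403-122610087. Lefty2 (ENSMUSG00000066652) at chr1:180893108-180899103 and Lefty1 (ENSMUSG00000038793) at chr1:180935022-180938400 are neighbors. Id1 (ENSMUSG00000042745) lies at chr2:152736251-152737410, Id2 (ENSMUSG00000020644) at chr12:25093799-25097140 and Id3 (ENSMUSG00000007872) at chr4:136143497-136145755, and Smad7 is ENSMUSG00000025880. The annotation places Gm15217 and Gm15222 on the opposite strand of Bmp4, and the cells together held 40 and 56 counts of them. No other member overlapped an annotated gene.

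Near-identical copies can divide reads between genes, so transcript sequence shared with other genes was looked up in windows of 100 bases. Only Lefty1, Lefty2 and Tdgf1 shared any such window. Lefty1 shared 5.85% of its windows with Lefty2, and Lefty2 shared 3.86% with Lefty1. Only a read wholly within these stretches could not be assigned to either gene alone. The study's paired reads were longer than these windows, and how many lay wholly within a shared stretch was not counted. Tdgf1 shared 3.17% with the processed pseudogene Tdgf1-ps1 on chromosome 16, which had 1673 counts, or 0.582% of those of Tdgf1. The stretch of 130 bases below is coding, on the strand of Tdgf1, joins 2 exons within chr9:110942540-110943176 and is identical over its whole length in the pseudogene.
Tdgf1 and Tdgf1-ps1: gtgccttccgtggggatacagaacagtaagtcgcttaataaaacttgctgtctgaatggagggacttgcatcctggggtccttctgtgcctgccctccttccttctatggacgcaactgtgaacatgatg

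The 250 bases upstream of the start were read from RefSeq (GRCm38.p6) for the members with an entry, 5 of the 9 looked up. Those of Bmp4 (chr14:46390670-46390919, minus strand), Nodal (chr10:61417722-61417971, plus strand) and Tdgf1 (chr9:110946159-110946408, minus strand) lie outside annotated exons of the gene and are shown because these are the pathways' main ligands and the co-receptor. Capitals mark GTCT on either strand, the 4-letter Smad box, which 82.9% of 32851 promoters of the same length hold. Bmp4 holds 1 such match, Tdgf1 3 and Nodal none. The palindrome GGCGCC, present in 9.59% of promoters, was in none of these 3. It occurred once in the 250 bases read for Id2, of which 161 lie in an annotated exon of that gene. These are matches of letters, not binding sites.
Bmp4: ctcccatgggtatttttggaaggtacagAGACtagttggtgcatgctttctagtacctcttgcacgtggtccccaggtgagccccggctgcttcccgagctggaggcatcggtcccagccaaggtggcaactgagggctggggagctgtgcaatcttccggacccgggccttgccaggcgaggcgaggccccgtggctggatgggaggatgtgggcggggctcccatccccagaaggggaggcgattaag
Nodal: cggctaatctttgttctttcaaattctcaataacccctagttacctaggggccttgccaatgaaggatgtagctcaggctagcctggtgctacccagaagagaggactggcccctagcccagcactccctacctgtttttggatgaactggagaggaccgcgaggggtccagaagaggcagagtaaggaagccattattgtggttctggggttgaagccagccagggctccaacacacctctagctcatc
Tdgf1: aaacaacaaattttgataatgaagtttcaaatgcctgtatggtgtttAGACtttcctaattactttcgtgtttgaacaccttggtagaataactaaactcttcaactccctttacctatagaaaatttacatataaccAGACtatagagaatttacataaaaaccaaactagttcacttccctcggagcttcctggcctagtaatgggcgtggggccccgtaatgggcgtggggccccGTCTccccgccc

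Cells held between 1718970 and 7342785 counts and between 9202 and 11547 detected genes. Levels are FPKM, counts scaled to exon length and to a library size set by the median of ratios, so they can be compared between genes. Marker genes were compared between the branches: 5 of 6 pEPI markers (all but Esrrb) had a mean at least 2-fold higher in pEPI, and all 7 of the pPrE markers with a mean of 1 FPKM or more were at least 2-fold higher in pPrE. The pPrE marker Dab2, at a mean of 0.958 FPKM, was left out and was 1.66-fold higher in pPrE. The dendrogram was built on expression in these same cells, so this is no independent check of the branch labels. Of 8 trophectoderm markers none was at 0 in every cell. Their summed level ranged from 0.165 to 173 FPKM in pEPI and from 0.256 to 99.3 FPKM in pPrE, with the highest mean for Krt8 (34.3 FPKM over all cells), whereas Cdx2 had a count in 3 cells. How far remaining trophectoderm bears on the values below was not tested. In 29 cells the summed counts of 4 genes of the Y chromosome (Kdm5d, Uty, Eif2s3y and Ddx3y) lay between 242 and 1298, and in the other 19 they were 0 or 1. These are called Y-positive and Y-negative cells. They follow the well names in the labels: wells A1 to C2 (18 cells) and E1 to F3 (11 cells) were Y-positive, and wells C3 to D8 (14 cells) and F4 to F8 (5 cells) were Y-negative. Sex, embryo, exact stage and well therefore cannot be told apart. Depth ran from 1940652 to 5097574 counts in Y-positive and from 1718970 to 7342785 in Y-negative cells, and the median number of detected genes was 10300 and 10247.

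Across the branches, the co-receptor Tdgf1 was the most abundant member and Bmp4 had a similar mean in pEPI and pPrE, whereas Id3 and Tdgf1 were lower and Id1 was higher in pPrE. Of the 9 members with a mean of 1 FPKM or more, 3 had a mean at least 2-fold higher in pEPI (Nodal, Lefty2 and Id3). This compares with 9.03% of all 10880 genes at that level. Id1 alone was at least 2-fold higher in pPrE, against 6.2% of genes. The median log2 ratio of pPrE over pEPI was -0.47 for the 9 members and 0.0029 for all genes. Since the dendrogram was itself built on gene expression in these cells, such differences are descriptions.

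**Figure D1:**
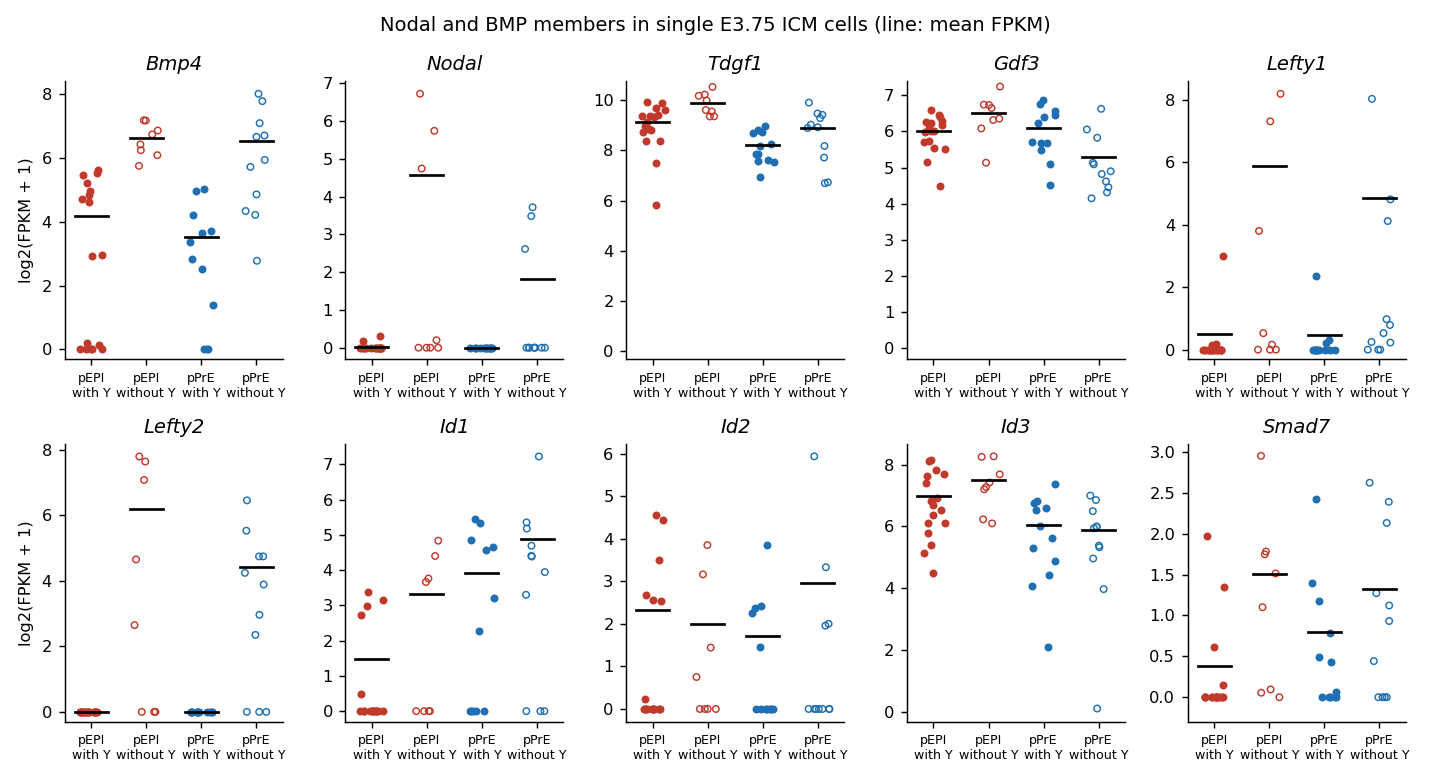
Level of each member in single cells as log2(FPKM + 1), by branch (red, pEPI; blue, pPrE) and by Y-linked counts (filled, Y-positive; open, Y-negative); every point is a cell and the line is the mean FPKM on the same scale. Bmp4 does not overlap between the 17 Y-positive and 8 Y-negative pEPI cells, and Lefty2 is at 0 in every Y-positive cell.

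Among the ligands, Bmp4 averaged 43.2 ± 45.4 FPKM in pEPI (SD, n = 25 cells) and 48.8 ± 70.2 FPKM in pPrE (SD, n = 23 cells), a log2 ratio of 0.17 that is far smaller than the spread between cells. Its direction turned in 4 of 15 alternatives, among them within the Y-positive cells and within the Y-negative cells taken alone. The lowest, median and highest levels were 0, 30.1 and 144 FPKM in pEPI and 0, 17.6 and 257 FPKM in pPrE.

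Nodal was detected in few cells. It had a count in 6 pEPI and 3 pPrE cells, and at least 10 counts in 3 of each. Its mean was 7.35 ± 23.4 FPKM in pEPI and 1.20 ± 3.34 FPKM in pPrE. Well C4 alone, a pEPI cell at 105 FPKM, held 56.5% of all Nodal counts, and without the wells of letter C the ratio of the branches reversed. The pEPI cells C8 at 52.6 and C3 at 25.8 FPKM and the pPrE cells D3, F6 and F5 at 12.2, 10.2 and 5.13 FPKM made up nearly all of the rest. Gdf3, by contrast, was present in every cell, at 71.8 ± 27.6 FPKM in pEPI and 53.7 ± 30.99 FPKM in pPrE. Its lowest, median and highest levels were 21.6, 72.1 and 150 FPKM in pEPI and 16.8, 50.4 and 116 FPKM in pPrE, so the branches overlapped widely. The branches were close in Y-positive cells (63.1 ± 19.6 and 67.7 ± 30.1 FPKM) and apart in Y-negative cells (90.3 ± 34.02 and 38.4 ± 24.9 FPKM).

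The co-receptor Tdgf1 was detected in all 48 cells, at 684 ± 324 FPKM in pEPI and 377 ± 221 FPKM in pPrE, a log2 ratio of -0.86. Its lowest, median and highest levels were 55.7, 664 and 1470 FPKM in pEPI and 102, 301 and 954 FPKM in pPrE. Individual cells overlapped, and in 21.4% of pairs of a pPrE with a pEPI cell the pPrE cell was the higher. The direction held in all 15 alternatives.

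The Lefty genes, inhibitors and targets of Nodal signaling, had no count in most cells and high levels in a few. Lefty1 had at least 10 counts in 8 cells and Lefty2 in 13. For Lefty1 these were 4 of 25 pEPI and 4 of 23 pPrE cells. For Lefty2 they were 5 pEPI (20%) and 8 pPrE cells (34.8%), so its detection ran opposite to its mean. The highest Lefty1 levels were in C7 (292 FPKM, pEPI), C6 (261 FPKM, pPrE) and C8 (158 FPKM, pEPI), followed by D3 at 27.2 FPKM. Lefty2 was highest in C4 (220 FPKM), C8 (198 FPKM) and C7 (134 FPKM), all pEPI, followed by the pPrE cells C6 (86.4 FPKM) and D3 (45.1 FPKM). Mean Lefty1 was 18.9 ± 65.1 FPKM in pEPI and 13.6 ± 54.4 FPKM in pPrE, and mean Lefty2 23.2 ± 62.1 and 9.81 ± 20.4 FPKM. Both ratios rest on wells of letter C and reverse without them.

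Of the Id genes, Id3 was by far the most abundant and followed pEPI, whereas Id1 followed pPrE. Id3 averaged 143 ± 87.4 FPKM in pEPI and 62.3 ± 43.7 FPKM in pPrE (log2 ratio -1.20), with a lowest, median and highest level of 21.6, 119 and 306 FPKM in pEPI and 0.091, 60.5 and 165 FPKM in pPrE. Id1 averaged 4.08 ± 7.27 FPKM in pEPI and 20.9 ± 31.5 FPKM in pPrE (log2 ratio 2.35). It had at least 10 counts in 8 of 25 pEPI cells (32%, exact binomial 95% interval 14.9 to 53.5) and in 15 of 23 pPrE cells (65.2%, 42.7 to 83.6). Such intervals, here and below, treat cells as independent draws although their embryos are unknown, and do not measure a spread between embryos. The pPrE cell D7 was apart at 148 FPKM, followed by B8 at 42.3 and D2 at 39.9 FPKM. For both genes the direction held in all alternatives, including within Y-positive and within Y-negative cells, although over all cells neither gap between branch means exceeded the SD of both branches. Id2 averaged 3.71 ± 6.55 FPKM in pEPI and 4.48 ± 12.7 FPKM in pPrE, and well C5 at 60.4 FPKM held 67.0% of its pPrE counts. Smad7, the inhibitory Smad, stayed low at 0.79 ± 1.55 and 1.11 ± 1.60 FPKM, and its mean of 0.942 FPKM over all cells kept it out of the counts of 2-fold differences.

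Bmp4 varied strongly within each branch. At least 10 counts were found in 18 of 25 pEPI cells (72.0%, exact binomial 95% interval 50.6 to 87.9) and in 20 of 23 pPrE cells (86.96%, 66.4 to 97.2), and 20 cells of either branch had at least 1 count. The squared coefficient of variation was 1.10 in pEPI and 2.07 in pPrE. With the study's thresholds on mean and variation, 7 of the 10 members were highly variable over the 48 cells (all but Tdgf1, Gdf3 and Id3), against 31.6% of genes. With a pseudocount of 0.1 in place of 1, Bmp4 alone of the members passed both thresholds. Nodal, Lefty1, Lefty2, Id1, Id2 and Smad7 then fell below the threshold on the mean. The share of all genes at that setting is not given here, so this does not set Bmp4 apart from genes in general.

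Within pEPI, the level of Bmp4 set Y-negative apart from Y-positive cells. The 17 Y-positive pEPI cells had a lowest, median and highest level of 0, 6.74 and 48.6 FPKM, and the 8 Y-negative pEPI cells of 52.9, 95.3 and 144 FPKM. Every Y-negative pEPI cell was thus above every Y-positive one, a separation in this direction that 0.147% of 10892 genes showed. Their means were 17.3 ± 18.5 and 98.4 ± 34.3 FPKM, a log2 ratio of 2.51. Within the Y-positive pEPI cells 12 of 17 had a Bmp4 count, while all 8 Y-negative cells did. The squared coefficient of variation was 1.15 within the Y-positive and 0.121 within the Y-negative pEPI cells.

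In pPrE the same ordering was seen with overlap. The 12 Y-positive pPrE cells had a lowest, median and highest level of 0, 7.76 and 31.7 FPKM, and the 11 Y-negative pPrE cells of 5.87, 60.3 and 257 FPKM. In 90.2% of pairs the Y-negative cell was the higher, and the means were 10.4 ± 11.1 and 90.6 ± 83.8 FPKM. Both D5 (257 FPKM) and F7 (219 FPKM) were Y-negative pPrE cells, while C5, C6 and D1 at 5.87, 17.6 and 19.2 FPKM fell among the Y-positive levels. Within the Y-negative pPrE cells the squared coefficient of variation stayed at 0.855, well above that of their pEPI counterparts.

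Both stretches of Y-negative wells were high in Bmp4. The mean was 89.6 ± 66.4 FPKM in wells C3 to D8 and 106 ± 71.5 FPKM in wells F4 to F8, against 13.4 ± 14.9 FPKM in A1 to C2 and 16.1 ± 18.4 FPKM in E1 to F3. Over all cells the log2 ratio of Y-negative over Y-positive cells was 2.70, and it ranged from 2.51 to 3.65 over 13 alternatives. Summed levels of marker genes differed between the sets as well. The summed pEPI markers had a median of 248 FPKM in Y-positive and 719 FPKM in Y-negative pEPI cells (ranges 90.7 to 823 and 264 to 941 FPKM), and the summed pPrE markers a median of 251 and 459 FPKM in the corresponding pPrE cells (81.6 to 416 and 242 to 632 FPKM). Each pEPI marker had a higher median in the Y-negative pEPI cells, with Nanog the most abundant (174 and 532 FPKM). The pPrE markers were divided. In Y-negative pPrE cells the medians of Gata6, Sox17, Col4a1 and Serpinh1 were higher, with Serpinh1 the most abundant (93.3 and 205 FPKM). Those of Pdgfra (21.8 and 12.7 FPKM), Gata4 and Sox7 were lower, and that of Dab2 was 0 in both sets. The summed trophectoderm markers had a median of 39.1 FPKM in Y-positive and 14.6 FPKM in Y-negative pEPI cells (10.4 to 173 and 0.165 to 61.7 FPKM), and of 19.95 and 35.9 FPKM in pPrE (0.256 to 99.3 and 7.50 to 65.3 FPKM). The part of these markers in the Bmp4 difference was not tested.

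**Figure D2:**
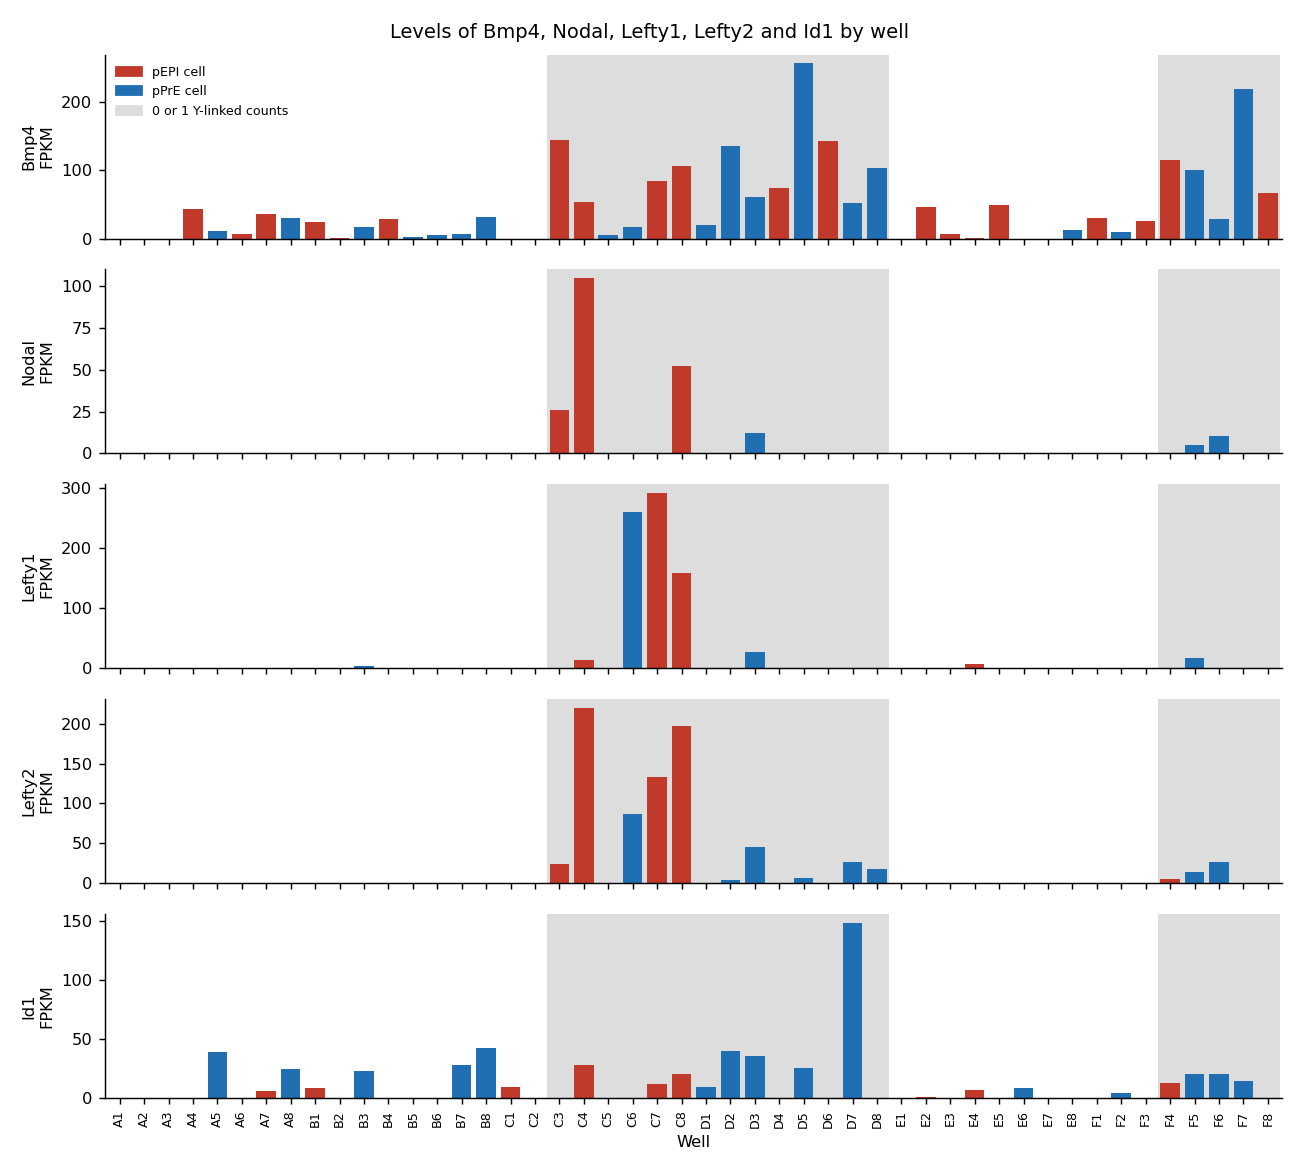
FPKM of Bmp4, Nodal, Lefty1, Lefty2 and Id1 in the 48 wells in the order of their names, each on its own linear scale (red, pEPI; blue, pPrE; gray ground, Y-negative cells). Bmp4 is high in both gray stretches, whereas the highest Nodal and Lefty levels lie between C3 and D3, and Id1 is also found outside the gray.

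Nodal and both Lefty genes were also found mainly in Y-negative cells. Of the 9 members tested, 5 (Bmp4, Nodal, Lefty1, Lefty2 and Id1) were at least 2-fold higher in Y-negative cells, against 7.67% of genes, and none was at least 2-fold higher in Y-positive cells, against 7.05% of genes. Nodal, Lefty1 and Lefty2, at 0.013, 0.410 and 0 FPKM in Y-positive cells, passed the filter of 1 FPKM only through Y-negative cells. Their place among the 5 therefore followed from the filter, and the median given next includes them. The median log2 ratio of Y-negative over Y-positive cells was 1.56 for the 9 members with Lefty2 among them and 0.013 for all genes. Lefty2 had no count in any of the 29 Y-positive cells, which by the floor of 3 allows a count in up to 10.3% of such cells (exact binomial upper bound 11.9%), and at least 10 counts in 13 of 19 Y-negative cells (68.4%, 43.5 to 87.4). Its mean in Y-negative cells was 42.4 ± 68.0 FPKM. As a share of all counts, its summed counts in Y-negative cells were 4784-fold a floor of 3 counts over the Y-positive cells. Well C4 alone held 32.1% of the Lefty2 counts. Nodal had 2 counts in all Y-positive cells together and 2217 in Y-negative ones (log2 ratio 9.75, counting interval 7.90 to 12.8). Lefty1 averaged 0.410 ± 1.495 FPKM in Y-positive and 40.6 ± 90.9 FPKM in Y-negative cells. The means of these 3 genes were also unequal in the Y-negative stretches, each within a wide spread. Mean Nodal was 13.97 ± 30.2 FPKM in C3 to D8 and 3.09 ± 4.54 FPKM in F4 to F8. Mean Lefty2 was 54.4 ± 76.0 and 8.96 ± 10.9 FPKM in the same wells, and mean Lefty1 53.9 ± 103 and 3.45 ± 7.24 FPKM.

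Id1 averaged 6.85 ± 12.2 FPKM in Y-positive and 20.2 ± 33.5 FPKM in Y-negative cells, within wide overlap. In Y-positive cells it was 1.78 ± 3.33 FPKM in pEPI and 14.03 ± 16.3 FPKM in pPrE, and in Y-negative cells 8.98 ± 10.8 and 28.3 ± 42.1 FPKM, so the branch order was the same in both. Tdgf1 likewise was lower in pPrE in both sets, at 555 ± 252 and 294 ± 124 FPKM in Y-positive and 956 ± 298 and 467 ± 270 FPKM in Y-negative cells. Id3 differed little between the sets (log2 ratio 0.10), as did Gdf3 (-0.11), and both changed direction in some alternatives.

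The members were next compared cell by cell. Of their 45 pairs, 3 reached a Spearman rho of 0.5 over the 48 cells and none reached -0.5. The 3 pairs were Lefty1 with Lefty2 (0.76), Bmp4 with Lefty2 (0.56) and Nodal with Lefty2 (0.52). The Lefty pair shares a small part of its sequence, as given above. Embryo of origin is unknown for every point, and the correlation of each member with total counts lay between -0.13 and 0.21 over the 48 cells. Within the branches it reached 0.34 for Lefty2, 0.33 for Id1 and 0.29 for Lefty1 in pEPI, and 0.33 for Id2 in pPrE. A Spearman rho of 0.5 or more with Bmp4 was found for 1 of the 8 other members with a mean of 1 FPKM, against 0.772% of 10879 genes.

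Ligand levels and Id genes were weakly related. For the 15 pairs of Bmp4, Nodal, Gdf3, Lefty1 or Lefty2 with Id1, Id2 or Id3, rho over the 48 cells ran from -0.14 (Bmp4 with Id2) to 0.45 (Lefty1 with Id1). Bmp4 had a rho of 0.35 with Id1 and 0.28 with Id3. Within pPrE the value for Bmp4 and Id1 was 0.54, and within pEPI it was 0.26. Of the 23 cells with at least 10 counts of Id1, 20 also had at least 10 of Bmp4, which was present at that level in 38 of the 48 cells. Within pEPI, Id1 went with Lefty1 (0.70) and Lefty2 (0.63), and within pPrE these values were both 0.22. For either pair, only 4 pEPI cells held at least 10 counts of both genes.

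Several of these values changed when Y-positive and Y-negative cells were taken apart. Bmp4 with Lefty2 went from 0.56 to -0.17 in Y-negative cells, and no value exists in Y-positive cells, where Lefty2 was at 0. Bmp4 with Id1 was 0.20 in Y-positive and 0.09 in Y-negative cells with the branches mixed, but 0.63 in Y-positive and 0.44 in Y-negative pPrE cells, and 0.04 and -0.33 in the pEPI cells. Lefty1 with Lefty2 reached 0.90 in Y-negative cells, Nodal with Lefty2 0.55 and Bmp4 with Tdgf1 0.52. Bmp4 with Tdgf1 was -0.33 in the Y-negative pEPI and 0.73 in the Y-negative pPrE cells. All 6 cells with at least 10 counts of Nodal also had at least 10 of Lefty2. Of the 15 cells with at least 10 counts of a Lefty gene, 14 had as many of Bmp4, and 13 of these 15 were Y-negative. All 19 Y-negative cells had at least 10 counts of Bmp4, so the overlap in those 13 followed from their set. Of the 2 Y-positive ones, 1 had Bmp4 at that level. Gdf3 with Id3 was 0.72 in Y-negative and 0.12 in Y-positive cells with the branches mixed. It was 0.60 in the Y-negative pEPI and 0.29 in the Y-negative pPrE cells.

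**Figure D3:**
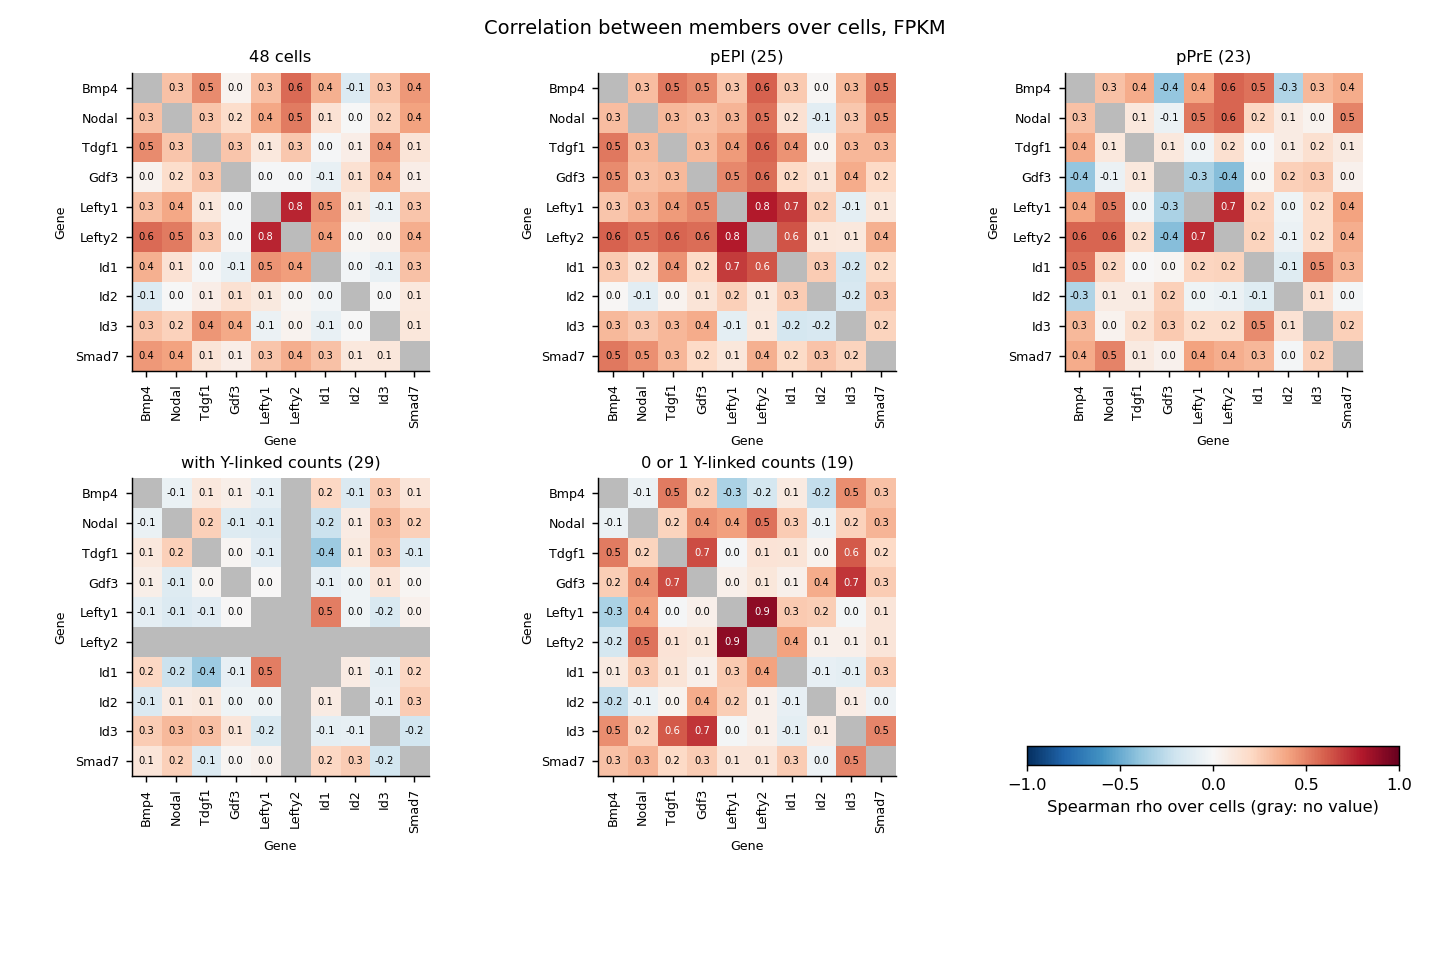
Spearman rho between members over cells for all 48 cells, for each branch and for Y-positive (29) and Y-negative (19) cells, from blue (-1) through white (0) to red (1), with gray where no value exists. Bmp4 and Lefty2 go from 0.56 over all cells to -0.17 in Y-negative cells, whereas Lefty1 and Lefty2 go from 0.76 to 0.90.

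Beyond the members, 61 further genes of both pathways were looked up. Of these, 11 had no count in any cell and 23 had a mean of 1 FPKM or more. Among ligand and processing genes of the Nodal side the convertase gene Pcsk6 was highest, at 4.51 ± 4.64 FPKM in pEPI and 3.74 ± 3.14 FPKM in pPrE. Among the receptor genes in the Nodal list the highest was Tgfbr1, a TGF-beta type I receptor gene, at 2.69 ± 3.56 and 2.85 ± 3.19 FPKM. Of the activin receptor genes, Acvr2a was at 2.13 ± 2.62 and 3.09 ± 3.44 FPKM, and Acvr2b at 1.79 ± 1.81 and 2.25 ± 3.02 FPKM. Acvr1b averaged 0.672 FPKM over all cells, and Acvr1c had no count in any cell. Foxh1, the partner of Smad2 and Smad3, was the highest of all, at 75.5 ± 33.1 and 72.8 ± 31.02 FPKM. Eomes, a Nodal target, was at 2.87 ± 4.71 and 3.57 ± 4.75 FPKM. Apart from Eomes no listed Nodal target reached a mean of 1 FPKM.

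On the BMP side, none of the 9 further ligand genes reached a mean of 1 FPKM, and Bmp2 and Bmp7 each had counts in 1 cell. Bmpr1a, a type I receptor gene, was at 3.56 ± 3.25 FPKM in pEPI and 3.30 ± 2.72 FPKM in pPrE. Smad5 was at 2.23 ± 2.66 and 1.95 ± 2.13 FPKM, whereas Smad1 had counts in 5 cells, all pPrE. Bambi, a pseudoreceptor that dampens signaling, was at 6.05 ± 5.82 and 4.23 ± 3.79 FPKM.

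Of the 23 genes, 1 was at least 2-fold higher in pPrE, against 6.2% of all genes at that level. Another 1 was at least 2-fold higher in pEPI, against 9.03% of genes. Msx2, a homeobox gene and BMP target, was at 4.90 ± 6.61 FPKM in pEPI and 12.7 ± 9.40 FPKM in pPrE, and Fstl3, which encodes an activin-binding protein, at 3.43 ± 7.25 and 0.171 ± 0.571 FPKM. Fstl3 passed the filter of 1 FPKM only through pEPI. The corepressor gene Tgif1 was at 19.5 ± 12.8 and 10.7 ± 8.53 FPKM. In Y-negative cells 6 of the 23 genes were at least 2-fold higher than in Y-positive cells, against 7.67% of all genes. None was lower by as much, against 7.05% of genes. The 6 genes were Inhbb, Furin, Smad3, Skil, Pmepa1 and Gata2, named here after their values were seen. Smad3 was the most abundant of them in Y-negative cells, at 1.48 ± 2.93 FPKM in Y-positive and 4.57 ± 3.80 FPKM in Y-negative cells. Inhbb and Gata2 passed the filter of 1 FPKM only through Y-negative cells (0.824 and 0.556 FPKM in Y-positive cells).

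**Figure D4:**
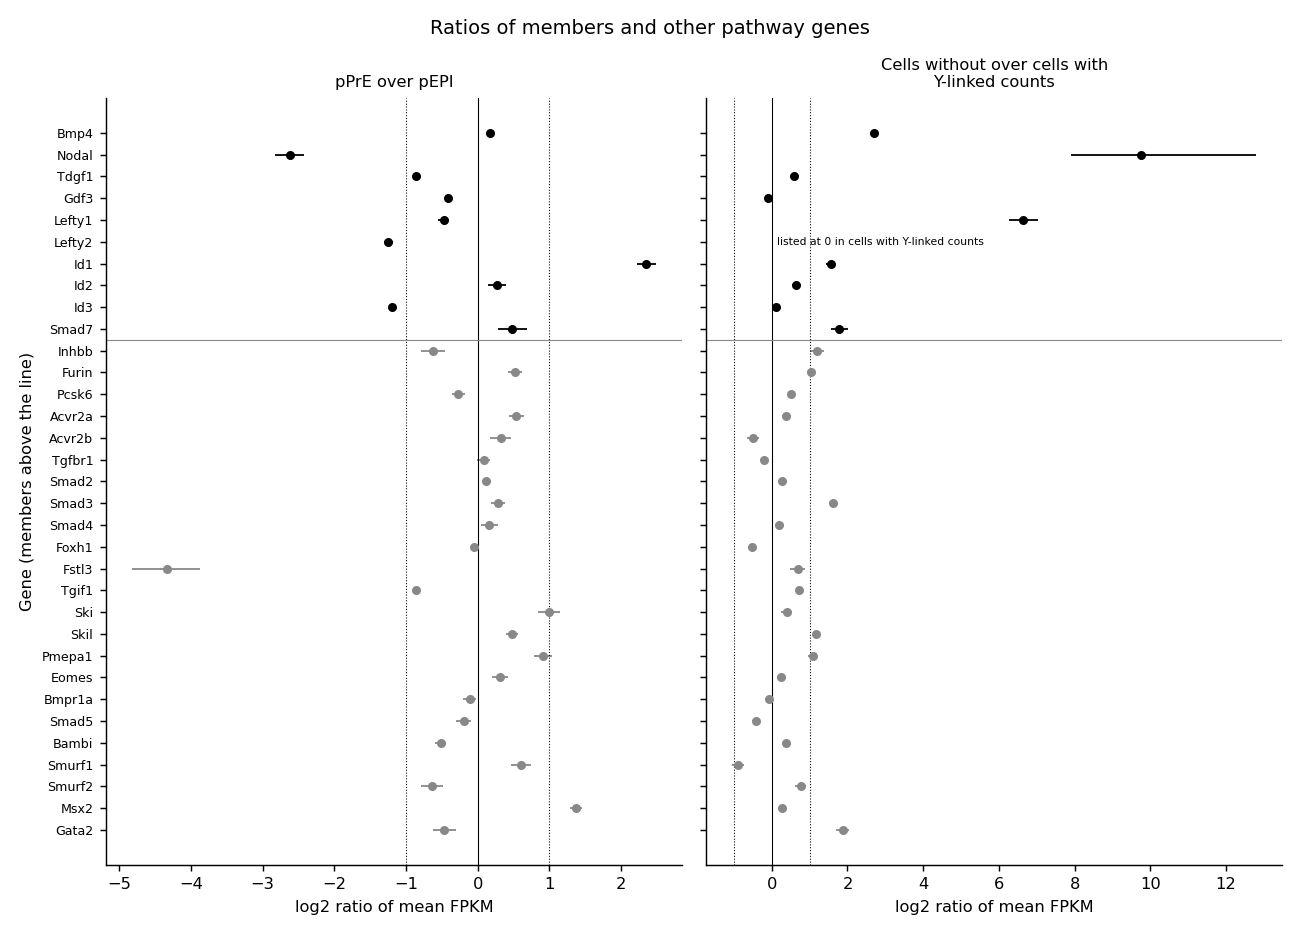
Log2 ratio of mean FPKM for the members (black) and the other pathway genes with a mean of 1 FPKM or more (gray), for pPrE over pEPI and for Y-negative over Y-positive cells; bars are counting intervals and dotted lines mark a ratio of 2-fold. Nodal and Lefty1 lie far to the right in the second panel, where no ratio exists for Lefty2, and Id1 lies right of the 2-fold line in both panels.

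The genes most like each member over the 48 cells, by rho among genes with a mean of 1 FPKM or more, were then listed for the members with counts in at least 10 cells. Bmp4 was most like the processed pseudogenes Sms-ps (0.71), Rbpj-ps3 (0.70) and Gm13736 (0.68), which were at 0.31, 0.21 and 0.15 in Y-positive and at 0.42, 0.67 and 0.38 in Y-negative cells. Of the 84 genes at 0.5 or more with Bmp4, 17.9% lay on the X chromosome, against 3.91% of all genes tested. Tdgf1 was most like its pseudogene Tdgf1-ps1 (0.95), then Jam2 and Sms (0.79 and 0.78). Id3 was most like Gm9788 (0.70), Dppa2 (0.68) and Nanog (0.68), the latter a marker of the epiblast that itself belongs to the genes separating the branches. Lefty1 and Lefty2 were each most like the other, and after it Lefty1 was most like Epha2 (0.62) and Rps3a1 (0.59) and Lefty2 like Muc13 (0.74) and Slc9a3r1 (0.72). Gdf3 went with Zfp57 (0.55), Slc2a1 (0.54) and Gm5844 (0.54), and Id1 with Sec61b (0.57), Gm14410 (0.53) and Spry1 (0.51). For Id2 no gene reached 0.5, and Tram1 came closest at 0.49, before Vmac and Gtf2f1 (both 0.47).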

How the data were processed

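Single-cell RNA was measured by Smart-seq2 in 48 ICM cells. The values are raw whole-number counts per gene that the authors deposited, made with HTSeq on Ensembl 87 genes of mm10 and with STAR named in the submitters' processing notes. Replicates were not pooled, and the authors state filters on depth, gene-body coverage and outliers for their own analyses; all 48 deposited cells were used here. FPKM was computed here from the union of exons in GENCODE M21 (GRCm38), which gave a length for 49412 of 49671 genes, and from median-of-ratios library sizes. Branches were read by eye from the study's dendrogram, since the labels give none. Cells are not replicates, so no p-value was computed; errors are SDs over cells, intervals on shares are Clopper-Pearson, and the counting intervals of ratios are approximate. Intervals on shares, and a floor given as a share of cells, treat cells as independent draws although their embryos are unknown. Counting intervals and floors in counts cover counting error only, since without molecular identifiers reads of 1 molecule can be counted repeatedly. A gene was compared where its mean was 1 FPKM or more, differed where means were 2-fold apart, was present in a cell at 10 counts, and a pair was named at a rho of 0.5. No doublet caller was run. No 2 cells had identical counts. The scripts were tested on simulated data.

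The members, lists and thresholds were chosen with earlier results of these data known. Genes named are the members, listed pathway genes of 1 FPKM or more that were highest in their list or 2-fold apart between branches, and the 3 genes most like each member. Some listed genes outside this rule, such as activin receptor genes, Bmp2 and Smad1, are named as well. The split by Y-linked counts (at least 100) and its alternatives were chosen after seeing the data. Python 3.11.15, numpy 2.4.6, pandas 2.3.3 and scipy 1.17.1 were used. Protein sequences were not used here, and upstream sequence of Lefty1, Lefty2, Gdf3 and Id1 was not used here. The genes most like Smad7 and the sequence shared by Lefty1 and Lefty2 are not reported here.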

Additional observations from a re-analysis of the deposited data

How the results depend on the processing

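Alternatives covered library size, ratios of summed CPM, medians, thinning to the smallest total, each well letter left out, the highest cell left out, either Y set alone, grouping by the Nanog to Gata6 ratio or by PC1, filters and pseudocounts. Of 116 values for the main counts, shares and variation 100 stayed close and 16 moved. Among 368 ratios and correlations 189 stayed within their counting interval or, for correlations, on the same side of 0.5, and the rest did not. The direction of pPrE over pEPI turned in 13 of 142 values (4 each for Bmp4 and Id2, and 1 each for Nodal, Gdf3, Lefty1, Lefty2 and Smad7), and that of Y-negative over Y-positive cells in 8 of 111 (Gdf3, Id2 and Id3). The cause was not tested.

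Members at least 2-fold higher in pEPI (3) became 1 with medians over cells, 1 without wells of letter C, 1 in Y-positive cells alone (Nodal, with 2 counts in all), 6 in Y-negative cells alone and 5 when grouped by the Nanog to Gata6 ratio. Members at least 2-fold higher in pPrE (1) became 4 without letter C, 2 in Y-negative cells and 0 by the Nanog to Gata6 ratio, which left 39 of 48 cells in the group of their branch. Without letter C the log2 ratio of pPrE over pEPI turned to 5.58 for Nodal, 4.58 for Lefty2 and 2.66 for Lefty1, and 1 member (Id2) was at least 2-fold higher in Y-positive cells, in place of 0. In Y-negative cells alone, 100% of pEPI and 100% of pPrE cells had Bmp4, its squared coefficient of variation was 0.121 in pEPI and 0.855 in pPrE, and rho of Bmp4 with Lefty2 was -0.17. In pPrE that coefficient was 1.14 in Y-positive cells alone and 3.48 without letter D. Highly variable members fell from 7 to 1 with a pseudocount of 0.1, a setting that lowers the mean log2 level on which the threshold acts. No share of all genes at that setting is given beside this. No paired analysis was possible because the labels number no replicates and the result comes from no test. Depth limits Nodal, Lefty1, Lefty2 and Smad7, where a cell without counts may hold a few transcripts.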
